A study of Homo sapiens with 6 samples.

Results

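The major histocompatibility complex (MHC) was described here through its peaks of trimethylated histone H3 lysine 4 (H3K4me3) and lysine 27 (H3K27me3) in HL-60 cells, a line from a human promyelocytic leukaemia that the labels call myeloblast. Members were the distinct peaks of the 4 deposited lists on chromosome 6 of hg19 that start from 29.5 Mb to below 33.5 Mb, a window of 4 Mb. They number 497 of the 65225 peaks of all lists. Parental cells contributed 246 of 33470 H3K4me3 peaks and 19 of 3578 H3K27me3 peaks. Cells knocked out for JMJD3 (also KDM6B), a histone demethylase that removes methyl groups from H3K27, contributed 203 of 24943 H3K4me3 peaks and 29 of 3234 H3K27me3 peaks. Both genotypes were grown in DMEM with serum, with no further treatment in the labels, and the sources used here give neither how the knockout was made nor how many clones it stands for. Each genotype and mark is represented by 1 library, so no difference between genotypes has a replicate check and none carries a p-value. An input library of each genotype was not analysed here.

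H3K4me3 sits at the start sites of genes that are active or ready to be transcribed, while H3K27me3 is laid down by Polycomb complexes over silent genes. The MHC is a gene-dense immune region and is read in class I, class III and class II parts. Its class I part holds the HLA heavy chains that display peptides from inside the cell to cytotoxic T cells, its class II part holds the HLA chains that display ingested antigen to helper T cells, and the class III part between them holds complement, cytokine and many housekeeping genes. Myeloid precursors carry class I molecules on their surface, whereas class II genes need the co-activator CIITA, which acts through a promoter module of W, X and Y boxes.

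Promoters of the complex are shown because members of the same family differed in whether they carried promoter H3K4me3. Of 187 genes with a listed start site in the window, 177 were found by symbol and 9 by an older name in the RefSeq table of GRCh38.p14, and 140 had a promoter sequence there, with its coordinates in that build. The 150 bases before the start site are printed 5′ to 3′ on the strand of the gene. The first set shares the 8-base motif CTGATTGG, the letters of the class II Y box that NF-Y binds, here in capitals. It lies on the opposite strand, as CCAATCAG, in the class I genes HLA-B (chr6:31357180-31357329, minus strand), HLA-C (chr6:31272093-31272242, minus strand) and HLA-F (chr6:29723284-29723433, plus strand).
HLA-B: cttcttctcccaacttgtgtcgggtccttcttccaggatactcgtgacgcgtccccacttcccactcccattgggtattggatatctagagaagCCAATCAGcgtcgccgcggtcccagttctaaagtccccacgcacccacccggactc
HLA-C: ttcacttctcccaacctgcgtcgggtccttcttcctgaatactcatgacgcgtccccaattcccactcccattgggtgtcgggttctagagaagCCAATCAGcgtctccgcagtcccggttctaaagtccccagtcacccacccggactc
HLA-F: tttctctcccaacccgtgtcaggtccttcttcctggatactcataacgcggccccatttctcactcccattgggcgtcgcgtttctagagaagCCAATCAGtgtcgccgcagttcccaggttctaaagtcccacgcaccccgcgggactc
The class II genes HLA-DRB5 (chr6:32530288-32530437, minus strand), HLA-DQA2 (chr6:32741241-32741390, plus strand), HLA-DQB2 (chr6:32763533-32763682, minus strand) and HLA-DMA (chr6:32953098-32953247, minus strand) hold it on the strand of the gene.
HLA-DRB5: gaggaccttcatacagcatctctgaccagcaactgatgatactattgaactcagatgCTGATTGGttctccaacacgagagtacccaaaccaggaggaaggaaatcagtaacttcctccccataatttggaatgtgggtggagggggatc
HLA-DQA2: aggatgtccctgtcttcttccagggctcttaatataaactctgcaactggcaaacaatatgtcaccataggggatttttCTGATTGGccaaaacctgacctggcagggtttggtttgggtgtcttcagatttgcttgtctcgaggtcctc
HLA-DQB2: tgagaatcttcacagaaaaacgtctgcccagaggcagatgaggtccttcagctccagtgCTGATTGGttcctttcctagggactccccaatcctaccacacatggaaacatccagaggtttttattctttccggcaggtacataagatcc
HLA-DMA: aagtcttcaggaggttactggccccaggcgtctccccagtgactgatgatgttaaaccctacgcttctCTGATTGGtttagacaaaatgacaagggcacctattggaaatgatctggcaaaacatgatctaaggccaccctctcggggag
HLA-B and HLA-C carried H3K4me3 within 5 kb of their start sites in both libraries, and the other 5 of these genes carried none in either library. The motif began at -56 in HLA-B and HLA-C, at -57 in HLA-F, and at -93, -71, -91 and -82 in HLA-DRB5, HLA-DQA2, HLA-DQB2 and HLA-DMA, counted from the start site. The same 8 letters were thus present in marked and in unmarked promoters. Whether a match, above all in class I genes, is the Y box of a W, X and Y module was not tested.

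A second set is shown for its interferon and NF-kB motifs. TAP1 (chr6:32853705-32853854, minus strand), which pumps peptides into the endoplasmic reticulum for class I loading, holds 2 overlapping matches to the core GAAANNGAA of an interferon-stimulated element, on the opposite strand at -133 and -127, and the NF-kB motif GGGACTTTC at -72. LTB (chr6:31582426-31582575, minus strand), a membrane-bound cytokine of the TNF family, holds the same NF-kB motif on the opposite strand at -85. The matches are in capitals.
TAP1: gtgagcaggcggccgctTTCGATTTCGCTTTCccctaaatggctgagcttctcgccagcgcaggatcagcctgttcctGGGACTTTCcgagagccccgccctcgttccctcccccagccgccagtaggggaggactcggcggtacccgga
LTB: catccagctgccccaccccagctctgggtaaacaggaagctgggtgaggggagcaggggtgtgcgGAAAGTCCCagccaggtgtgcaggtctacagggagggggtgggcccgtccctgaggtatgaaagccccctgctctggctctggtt
Both genes carried H3K4me3 in both libraries. Over 300-base promoters (250 bases before to 50 bases after the start site) and both strands, the NF-kB letters were found in 2 of the 92 promoters of the complex that were marked in both libraries and in 0.366% of the 27305 promoters of the table.

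The deposited lists join peaks to RefSeq transcripts whose start site (TSS) lies within 20 kb of the peak centre. They hold no read counts or heights, so the depth is unknown and width is the only measure of size. Peak names are numbered in genome order. Of the numbers spanned by the complex, 97.2% and 99.0% had a line in the parental and knockout H3K4me3 lists, but 54.3% and 63.0% in the H3K27me3 lists, against 20.6% and 20.7% over all H3K27me3 numbers. Numbered peaks with no line were not analysed here. As a check of the line, the promoter of the granulocyte gene MPO carried H3K4me3 of 5524 bp (parental) and 2550 bp (knockout), and 7 of 9 granulocyte-lineage markers were marked in both libraries. The 2 T cell markers with a line were unmarked, and the B cell marker CD79A was marked by narrow peaks (600 bp parental, 146 bp knockout). The promoter of the targeted gene KDM6B carried H3K4me3 of 3041 bp (parental) and 710 bp (knockout); a histone mark at this start site says nothing of a coding change.

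H3K4me3 covered 149.454 kb of the complex in the parental library and 69.464 kb in the knockout library. The covered length in the knockout was thus 0.465 of the parental one, against 0.465 on the rest of chromosome 6 and 0.474 over the whole lists. The number of peaks stood at 203 over 246, a ratio of 0.825 (Wilson 95% interval 0.685 to 0.993), against 0.771 (0.716 to 0.829) on the rest of the chromosome and 0.745 (0.733 to 0.758) over the whole lists. With the lists of both genotypes cut to equal length by keeping the widest peaks, the ratio in the complex was 1.06. That cut makes the whole lists equal in number in advance. With peaks of at least 300 bp in both lists, the ratio in the complex was 0.612. The interval for the complex includes the value of the rest of the chromosome and of the whole lists. These intervals cover counting error only, since neighbouring peaks are not independent. Median peak width was 405.5 bp and 282 bp in the parental and knockout library, and the widest peak measured 3832 bp and 1621 bp. Fewer cells that carry the mark, less of it per cell and a difference in depth cannot be told apart.

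**Figure D1:**
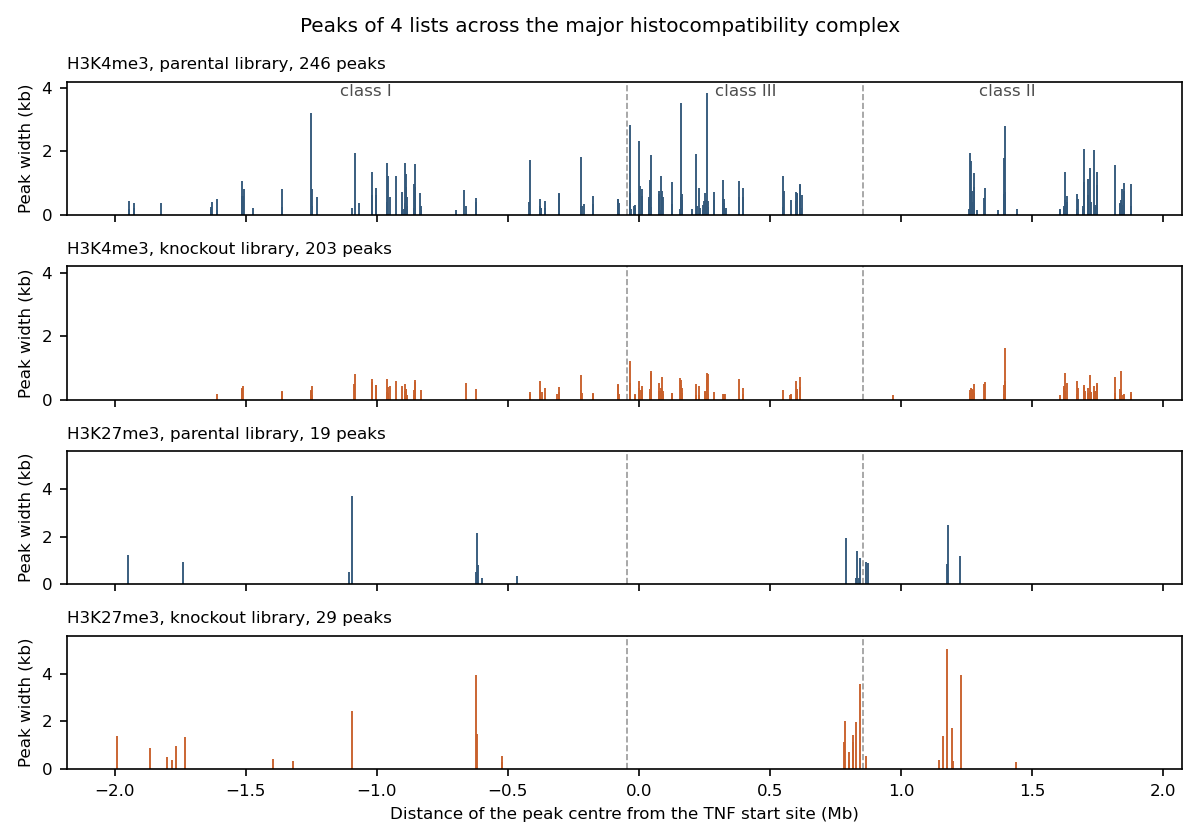
Each vertical line is a peak, placed by the distance of its centre from the TNF start site (Mb) with its width (kb) as height, in 1 panel for each of the 4 libraries; dashed lines part class I, class III and class II. H3K4me3 lines fill class III and the right end of class II and leave a gap to the right of the second dashed line, where H3K27me3 lines stand; H3K4me3 reaches 3832 bp in the parental and 1621 bp in the knockout library.

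Knockout peaks lay mostly inside parental ones. Of 203 knockout H3K4me3 peaks 189, or 93.1% (88.8 to 95.8), overlapped a parental peak by at least 1 bp, and 88.8% of their bases were shared. In the other direction 132 of 246 parental peaks, or 53.7% (47.4 to 59.8), overlapped a knockout peak. Where at least 50% of the peak had to be covered, the share fell to 23.6% of parental peaks and was 87.2% of knockout peaks, and where this was asked of both peaks it was 22.4% and 27.1%. The 114 parental peaks without a counterpart (46.3%, with 47.4% over the whole list) had a median width of 248.5 bp, and the 132 others had 661.5 bp. The 14 knockout peaks without a counterpart (6.90%, with 11.3% over the whole list) were at most 293 bp wide. Several knockout peaks overlapped the same parental peak in 38 of 246 cases, beside 4941 of 33470 over the whole list, a like share. The parental peak over TNF is 1 of the 38: its 2327 bp (chr6:31543385-31545711) matched 4 knockout peaks of 571, 353, 223 and 228 bp.

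Because a parental peak that matches several knockout peaks makes the numbers unequal, peaks of either library less than 1 kb apart were also joined into regions, a step chosen after seeing the data. The complex then held 101 H3K4me3 regions, of which 75 were present in both libraries, 24 in the parental library only (23.8%, background 25.4%) and 2 in the knockout library only (1.98%, background 4.89%). Regions of the parental library alone made up 14 of 43 in class I, 7 of 33 in class III and 3 of 25 in class II. A region present in both held on average 2.87 parental and 2.68 knockout peaks.

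The parts differed in density. Class III, 0.9 Mb long, held 98.9 parental and 78.9 knockout H3K4me3 peaks per Mb, while class I held 47 and 35 per Mb. Class II held 57.3 and 56.4 per Mb, but 43 of its 63 parental peaks lay in the last 0.4 Mb, from 33.1 Mb, which holds housekeeping genes such as RPS18, a ribosomal protein, and DAXX, a histone chaperone. Peak numbers were 94 and 70 in class I (ratio 0.745, 0.547 to 1.01), 89 and 71 in class III (0.798, 0.585 to 1.09) and 63 and 62 in class II (0.984, 0.694 to 1.39). The 3 intervals overlap. Covered length was 0.441, 0.444 and 0.522 of the parental length in class I, III and II.

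At gene level, a promoter was called marked when a peak centre lay within 5 kb of a TSS or a peak spanned it. Of the 187 genes with a start site in the window 115 carried promoter H3K4me3 in both libraries, 12 in the parental library only, 0 in the knockout library only and 60 in neither. The 12 make up 9.45% of the 127 genes marked in parental cells, beside 13.2% over all genes, and the share marked in knockout cells only was 1.57% over all genes. Summed promoter width was compared as a log2 ratio of knockout over parental, called beyond 1 in either direction, and pairs of widths are given below as parental then knockout. The median over the 115 genes was -0.96, beside -1.01 over all genes. Below -1 were 56 of the 115, or 48.7%, with 50.5% over all genes, and above 1 was 1 gene, with 0.375% over all genes. Start sites in the complex lie close together: the 127 genes fall into 60 groups that share promoter peaks, 31 of them with several genes, so gene counts are not counts of separate events.

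**Figure D2:**
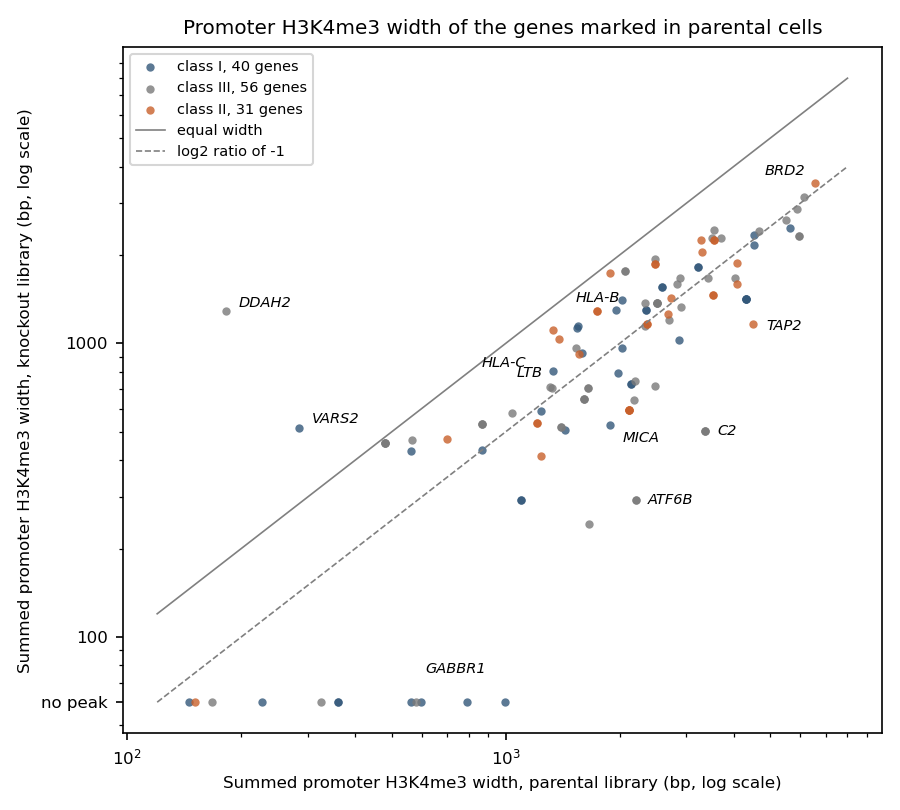
Each point is 1 of the 127 genes marked in parental cells, with its summed promoter H3K4me3 width in the parental (x) and knockout (y) library in bp on log axes, coloured by part; points at the bottom had no knockout peak. DDAH2 and VARS2 lie above the line of equal width and all other genes marked in both libraries below it, and 12 genes lie on the bottom row.

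Among the classical class I heavy chains, which present peptides to CD8 T cells, HLA-B and HLA-C were marked in both libraries. HLA-B carried 2355 bp in 3 parental peaks and 1299 bp in 3 knockout peaks, a log2 ratio of -0.86. Its widest peak, 1815 bp, lay downstream of the start site and matched 2 knockout peaks of 785 and 309 bp. HLA-C carried 1330 bp and 807 bp (-0.72). Neither was past the call. HLA genes have close relatives and many alleles, so peaks over them are uncertain where reads could not be placed.

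The non-classical class I genes and stress ligands were split. HLA-E, which presents leader peptides to natural killer cells, carried a single parental peak of 1958 bp that matched knockout peaks of 488 and 815 bp (1303 bp, -0.59). MICB, a stress ligand of the NKG2D receptor, carried 1557 and 1147 bp (-0.44). Its relative MICA carried 1890 bp in 6 parental peaks and 527 bp in 3 knockout peaks, a called log2 ratio of -1.84. HLA-F and HLA-G, which have restricted tissue expression, were unmarked in both libraries and had no H3K4me3 peak within 20 kb.

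All 5 genes of peptide loading and the immunoproteasome were marked in both libraries, and 4 of the 5 were called narrower, with 50.5% over all genes. TAP2, the partner of TAP1, carried 4515 and 1167 bp (-1.95), the lowest ratio in class II. PSMB8, an interferon-inducible proteasome subunit, carried 3538 and 1460 bp (-1.28). TAP1 and the proteasome subunit PSMB9 share a promoter and the same peaks, with 2369 and 1167 bp (-1.02). TAPBP, or tapasin, which bridges TAP and the class I chain, carried 2733 and 1432 bp (-0.93). Since the median of all genes was -1.01, the ratios of TAP1, PSMB9 and TAPBP lay close to the shift of the lists as a whole.

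The class II chains stood apart from their neighbours. None of the 5 alpha and beta chain genes with a line (HLA-DRA, HLA-DRB5, HLA-DRB6, HLA-DQA2 and HLA-DQB2) carried promoter H3K4me3 in either library. The other 6 of the 11 chains listed, HLA-DRB1, HLA-DQA1, HLA-DQB1, HLA-DPA1, HLA-DPB1 and HLA-DPB2, had no line in any of the 4 lists, either because no listed peak lay within 20 kb or because they were not in the authors' join. Of the 4 genes of peptide exchange, HLA-DMB, a chain of the DM heterodimer, had 1 parental peak of 151 bp at 3.733 kb and no knockout peak, and HLA-DMA, HLA-DOA and HLA-DOB had no promoter H3K4me3. BRD2, a bromodomain reader of acetylated histones between HLA-DMA and HLA-DOA, carried the widest promoter H3K4me3 of the complex, 6558 and 3518 bp (-0.90).

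The 2 longest stretches without listed H3K4me3 in either library met in class II. The first ran for 348.8 kb from GPSM3 to near HLA-DRB6 (chr6:32164455-32513265) and holds the start sites of C6orf10, HCG23, BTNL2, HLA-DRA and HLA-DRB5. The second ran for 290.9 kb on to TAP2 (chr6:32513412-32804331) and holds those of HLA-DRB6, HLA-DQA2, MIR3135B, HLA-DQB2 and HLA-DOB. A single knockout peak of 146 bp, the smallest width in the list, parts them. H3K4me3 peak numbers ran on without a gap across both stretches, so no numbered H3K4me3 peak without a line lay there. A stretch of 153.4 kb from DXO to ATF6B holds the complement genes C4A and C4B and the matrix gene TNXB.

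In the TNF cluster all 7 genes were marked in parental cells and 6 of them in both libraries. The share marked in parental cells only was 14.3%, beside 13.2% over all genes. TNF, the inflammatory cytokine, carried 2327 bp and 1375 bp (-0.76). Its neighbour LTA, lymphotoxin alpha, shares the parental peak and carried 2327 and 1147 bp (-1.02). LTB, its partner in a heterotrimer, carried 1307 and 709 bp (-0.88). The myeloid genes LST1 and AIF1 carried 2703 and 1199 bp (-1.17) and 2487 and 714 bp (-1.80). NCR3, an activating receptor of natural killer cells, had 581 bp in the parental and none in the knockout library by peak centres, but 72 bp of a knockout peak lay within 5 kb of its start site.

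Of the 4 complement genes, C2 alone was marked, with 3364 bp in 9 parental peaks and 504 bp in 3 knockout peaks (-2.74). It shares these peaks with EHMT2, the H3K9 methyltransferase G9a, and with the zinc finger gene ZBTB12. CFB, C4A and C4B, which are made chiefly by liver, were unmarked in both libraries. The heat shock gene HSPA1B carried 2194 and 747 bp (-1.55), while HSPA1A was unmarked. HSPA1A and HSPA1B, like C4A and C4B, are near-identical copies between which reads cannot be placed with certainty, so a difference between them is uncertain.

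Other genes of class III gave the lowest ratios of the complex. ATF6B, a transcription factor of the unfolded protein response, and its neighbour FKBPL shared 2205 bp in 3 parental peaks and 294 bp in 1 knockout peak (-2.91). NEU1, the lysosomal sialidase, carried 1662 and 242 bp (-2.78). Over all genes marked in both libraries 2.06% had a lower ratio than ATF6B and 2.84% a lower one than NEU1. At the other end PRRT1, PPT2 and PPT2-EGFL8 shared 480 and 459 bp (-0.06). In class I the lowest ratio was that of FLOT1, a lipid raft protein, and IER3, an early response gene, which shared 1095 and 293 bp (-1.90).

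Of the 115 genes marked in both libraries, 2 were wider in the knockout. VARS2, the mitochondrial valyl-tRNA synthetase, had a single peak in each library, of 285 and 517 bp (0.86). DDAH2, which degrades methylated arginines, had 182 and 1288 bp (2.82), but this rests on the centre rule. The parental peak of 3537 bp over the neighbour CLIC1 has its centre beyond 5 kb of DDAH2, and in the knockout it was overlapped by 5 smaller peaks, some with centres inside 5 kb. When bases within 5 kb were counted, DDAH2 had 1634 and 1118 bp, with a log2 ratio of -0.55 in the opposite direction, and with a window of 10 kb it had -0.80.

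Genes marked in the parental library only were most frequent in class I, with 8 of 40 genes, beside 3 of 56 in class III, 1 of 31 in class II and 13.2% over all genes. With HLA-F-AS1 and IFITM4P sharing a single peak of 361 bp, the 8 genes are not 8 separate cases. GABBR1, a GABA receptor subunit, had 597 bp, GTF2H4, a subunit of the repair and transcription factor TFIIH, had 792 bp, and RPP21, a subunit of ribonuclease P, had 561 bp. The collagen receptor DDR1 had 146 bp. In class III, VWA7 had 167 bp and AGER, the receptor for advanced glycation end products, had 325 bp, with 171 bp of knockout H3K4me3 within 5 kb when bases were counted. With peaks of at least 300 bp the shares were 12 of 37 in class I, 18 of 54 in class III and 1 of 30 in class II, beside 30.3% over all genes. In class I and class III they were 17.1% and 15.2% with a 1 kb window, beside 16.4% over all genes. A 10 kb window gave 18.2% and 1.59%, beside 13.5%. Peaks spanning the start site gave 58.3% and 73.3%, beside 72.1%. The order of class I and class III thus depends on narrow peaks and on the promoter rule.

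Of 30 genes of RNA handling, translation and repair 28 were marked in both libraries and 2 in the parental library only (GTF2H4 and RPP21). The 2 make up 6.67% of those marked in parental cells, beside 13.2% over all genes. The median log2 ratio was -0.84, beside -1.01 over all genes. Several of the 30 genes share the same peaks, such as CSNK2B with GPANK1 and SKIV2L with NELFE. DDX39B, an RNA helicase of mRNA export, carried 3703 and 2292 bp (-0.69), and the mismatch repair family member MSH5 carried 5956 and 2316 bp (-1.36). Of 14 chromatin and transcription factor genes with a line 13 were marked in both libraries, and the exception was POU5F1, the pluripotency factor. Their median was -1.18, beside the same -1.01 over all genes. Of 9 epithelial genes, such as the corneodesmosin gene CDSN, 6 were unmarked for H3K4me3. Of the widest parental promoters in class III, CLIC1, an intracellular chloride channel protein, carried 6138 and 3154 bp (-0.96), and C6orf48, host of the small nucleolar RNAs SNORD48 and SNORD52, carried 5877 and 2870 bp (-1.03).

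Genes outside the complex that serve it were set beside these. All 18 regulators and partners with a line were marked in both libraries, with a median log2 ratio of -1.05, beside -1.01 over all genes. CIITA and NLRC5, the co-activators of class II and class I genes, had no line. B2M, the light chain of class I molecules, carried 3948 and 1374 bp (-1.52). RFX5, which binds the X box, carried 1700 and 937 bp (-0.86), and CD74, the class II invariant chain, carried 251 and 146 bp (-0.78).

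Around start sites, H3K4me3 of the complex followed the shape seen over all genes. Of 130 start sites of genes marked in both libraries, 32.3% were covered at the start site itself in the parental library and 8.46% in the knockout library, beside 21.6% and 7.86% of 11055 start sites over all genes. Cover was highest downstream, at 0.5 kb in parental cells (91 of 130 start sites, beside 70.5% over all genes). In knockout cells it reached 34.6% at 0.8 kb in the complex and 41.4% at 0.5 kb over all genes. Genes that share a start region enter these shares together.

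**Figure D3:**
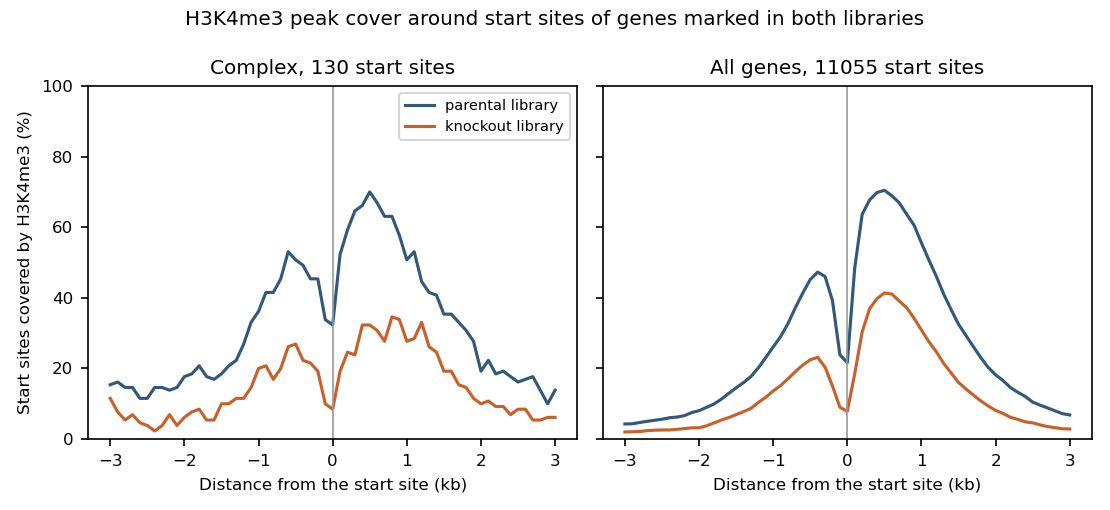
The share of start sites (%) that lie under an H3K4me3 peak is drawn against distance from the start site (kb, downstream to the right) for 130 start sites of the complex (left) and 11055 of all genes (right), by library. Both panels show a dip at the start site and a maximum downstream, 91 of 130 start sites and 70.5% in the parental library.

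H3K27me3 was sparse and lay in a few places. The complex held 19 parental peaks over 21.841 kb and 29 knockout peaks over 41 kb, a ratio of 1.53 in number (0.863 to 2.70) and 1.88 in covered length. On the rest of chromosome 6 these ratios were 1.104 (0.921 to 1.32) and 1.28, and over the whole lists they were 0.904 (0.862 to 0.948) and 0.988. Class I held 9 and 13 peaks, class III 5 and 8, and class II 5 and 8, and the last 0.4 Mb held none. The class III peaks all lay at the border with class II: with the limits moved by 0.1 Mb toward class I, class III held 0 peaks in both libraries. Of the parental peaks 10 of 19, or 52.6% (31.7 to 72.7), overlapped a knockout peak, and 9 were without a counterpart (47.4%, with 72.8% over the whole list). Of the knockout peaks 9 of 29, or 31.0% (17.3 to 49.2), overlapped a parental peak, and 20 were without one (69.0%, with 70.4% over the whole list). Where at least 50% of both peaks had to be covered, these shares were 15.8% and 10.3%.

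**Figure D4:**
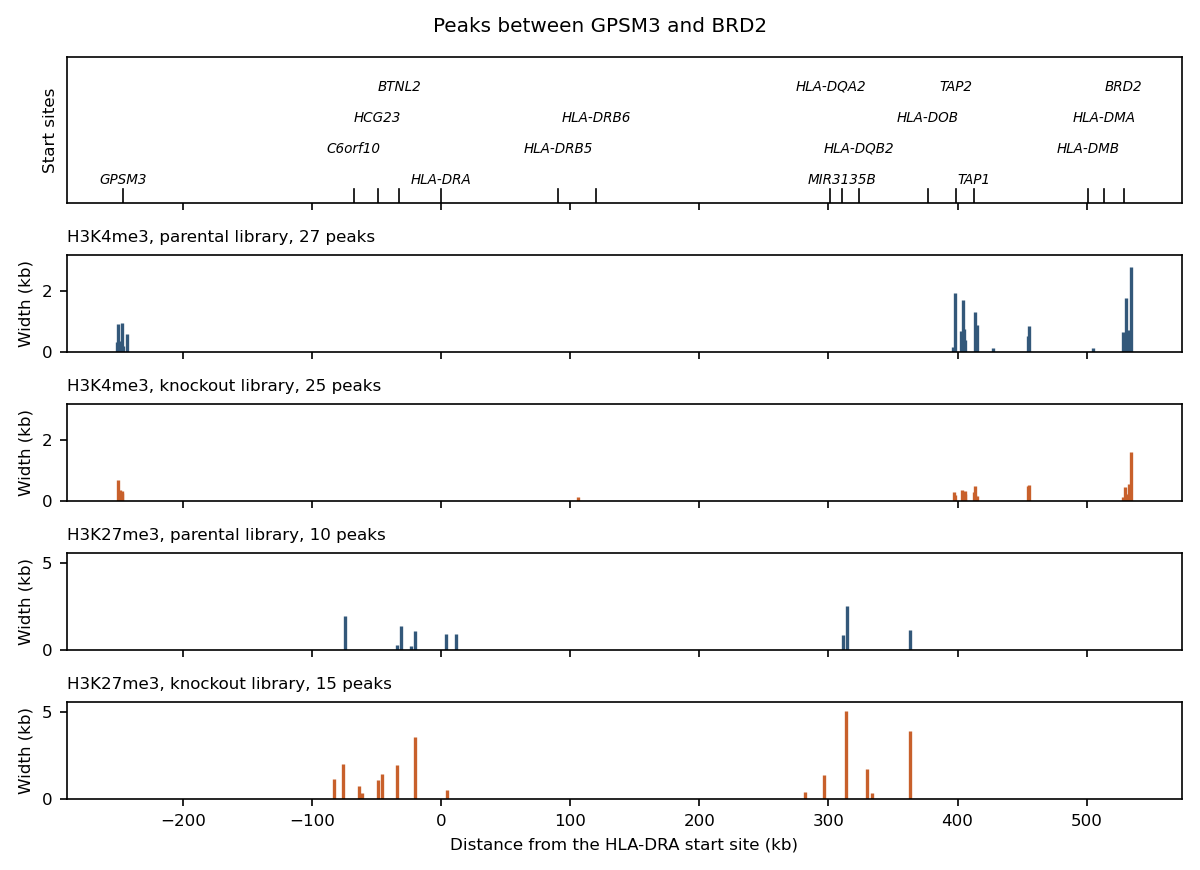
Peaks between GPSM3 and BRD2 are drawn as vertical lines with their width (kb) as height against distance from the HLA-DRA start site (kb), 1 panel per library under a panel of start sites. H3K4me3 stands at GPSM3 and from TAP2 to BRD2, with a single knockout peak of 146 bp between. H3K27me3 stands between them, with 10 parental and 15 knockout listed peaks.

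All 10 listed parental and 15 of the 16 listed knockout H3K27me3 peaks of class III and class II lay inside the longest stretches without H3K4me3. From GPSM3 to HLA-DRB6 there were 7 parental peaks (6840 bp) and 9 knockout peaks (12885 bp), and from HLA-DRB6 to TAP2 there were 3 (4558 bp) and 6 (12852 bp). Between these peaks, 4 parental H3K27me3 numbers had no line (chr6:32419460-32718497). In the knockout library 2 numbers (chr6:32411980-32689316) and 1 number (chr6:32741911-32769186) had none. The counts and lengths here are therefore incomplete in both libraries. The widest H3K27me3 peak of the complex was a knockout peak of 5041 bp between HLA-DQA2 and HLA-DQB2 (chr6:32718584-32723624), beside the microRNA gene MIR3135B. It covered the places of 2 parental peaks of 864 and 2510 bp. A peak near HLA-DOB, centred 14.331 kb from its start site in the parental and 13.672 kb in the knockout library, measured 1184 and 3937 bp. A peak 12.494 and 12.587 kb from BTNL2, a butyrophilin-like regulator of T cells, measured 1119 and 3576 bp.

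HLA-DRA, the alpha chain that pairs with all DR beta chains, differed in the opposite direction. Its peak within the 5 kb window measured 932 bp in the parental (chr6:32411050-32411981) and 535 bp in the knockout library. The centre lay 3.897 kb (parental) and 4.094 kb (knockout) from the start site, so this peak was not at the start site itself. A parental peak of 898 bp further on had no counterpart. The nearby C6orf10 locus had a parental peak of 1960 bp and a partly overlapping knockout peak of 2008 bp, with 773 bp in common. It had 3 more knockout peaks of 1126, 736 and 367 bp. HLA-B, HLA-C and the genes of the peptide loading and TNF cluster lists did not carry promoter H3K27me3 in either library.

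In class I the widest parental H3K27me3 peak, 3706 bp (chr6:30445942-30449647), lay 9.388 kb before HLA-E, and the knockout peak there measured 2440 bp and lay wholly within it. It was the 1 H3K27me3 peak of the complex that overlapped an H3K4me3 peak of the same genotype, by 210 bp (chr6:30448880-30449089). No knockout H3K27me3 peak of 29 overlapped H3K4me3. Over the whole lists 88 of 3578 parental and 44 of 3234 knockout H3K27me3 peaks did. Near DPCR1, a mucin-like gene of the epithelial cluster, a peak measured 518 and 3961 bp, while its neighbours of 2157 and 817 bp in parental cells were matched by 1474 bp and by none.

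At promoters, 6 genes carried H3K27me3 in parental and 13 in knockout cells, and 3 of them, BTNL2, HLA-DRA and MIR3135B, in both. The 3 in parental cells only were GABBR1 (1225 bp) and the pair C6orf15 and PSORS1C1 (331 bp, shared), 3 of 6, with 53.6% over all genes. The 10 of 13 in knockout cells only, with 52.3% over all genes, included OR2H2, an olfactory receptor, with SNORD32B (1379 bp), the non-coding genes HCG22 (856 bp) and HCG23 (2559 bp), HCG4 with LOC554223 (395 bp), the pseudogene HLA-L (353 bp), C6orf10 (736 bp) and HLA-DOA (298 bp). The tenth, MIR6891, is listed at start sites near HLA-L and in HLA-B, and its H3K27me3 is that of HLA-L. GABBR1 thus had both marks within 5 kb of a start site in parental cells and neither in knockout cells. Its parental H3K27me3 peak was centred 3.092 kb from the start site and the nearest H3K4me3 peak 317 bp from it. The 2 marks did not overlap there. The log2 width ratios of BTNL2, HLA-DRA and MIR3135B were 0.24, -0.80 and 0.58, and none was past the call in either direction (23.5% below -1 and 21.2% above 1 over all genes). Within 1 kb of a start site lay 0 of 19 parental and 2 of 29 knockout H3K27me3 peaks, at HCG22 and HCG23.

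Promoter sequence differed by state. The CpG ratio, observed CpG over that expected from base composition in the 300-base promoters, had a median of 0.750 in the 92 promoters marked by H3K4me3 in both libraries, 0.320 in 9 marked in the parental library only and 0.207 in 39 unmarked ones. The median of all 27305 promoters was 0.580. The 9 promoters with H3K27me3 in either library had a median of 0.196. The 7 class II promoters with a sequence had a median of 0.193, and the 4 class I heavy chain promoters 0.653. There were exceptions on both sides: LTB and TNF were marked with CpG ratios of 0.0705 and 0.441, and HLA-F was unmarked with 0.646. LTA, with 0.176, counted as marked only through peaks it shares with TNF. Their nearest centres lay 4477 bp (parental) and 3533 bp (knockout) from its start site. GABBR1, with both modifications within 5 kb of a start site in parental cells only, had 0.883.

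**Figure D5:**
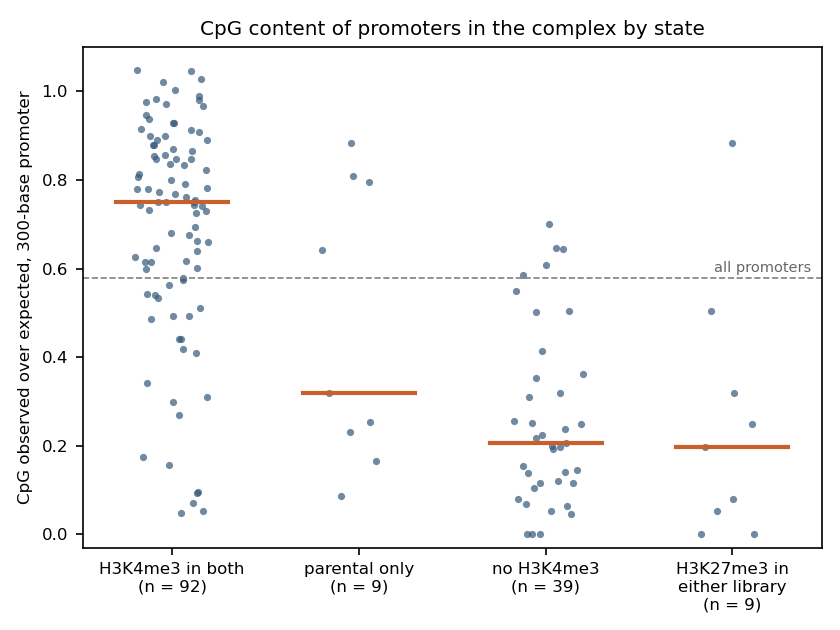
Each point is the CpG ratio of 1 promoter of the complex, grouped by H3K4me3 state and, at the right, by H3K27me3 in either library, so a gene can stand in 2 groups; orange bars are medians and the dashed line is the median of all promoters, 0.580. Promoters marked in both libraries centre on 0.750 and the other groups on 0.320, 0.207 and 0.196.

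The Y box letters were found on either strand in 3 of the 4 class I heavy chain promoters and in 4 of the 7 class II promoters, against 4.16% of all promoters. They were present in 9 of 92 promoters marked in both libraries (9.78%) and in 8 of 39 unmarked ones (20.5%). The shorter CCAAT motif, which the Y box contains on its opposite strand, was found in all 7 class II promoters and in 35.7% of all promoters. The TATA box letters TATAAA were found in 13 of 39 unmarked promoters (33.3%) and 8 of 92 marked ones (8.70%), against 11.95% of all promoters. The interferon core GAAANNGAA was found in 11 of 92 marked promoters (11.96%) and in 8.29% of all. These matches describe letters in a fixed window and show no binding.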

How the data were processed

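HL-60 chromatin was analysed by ChIP-seq (H3K4me3, H3K27me3), 1 library per genotype and mark; 6 libraries in all, with 2 inputs not analysed here. Tools named in the submitters' processing notes are MACS2 2.1.1, SAMtools and BWA 0.7.10, on hg19, with settings and controls not given. The antibody label of the H3K27me3 libraries names H3K4me3, so titles gave the mark. The deposited lists give, per the file headers, peak start and end, a distance and a score; the score deposited by the authors was recomputed from the distance alone and was not used as peak strength. Starts were read as counted from 0, which the sources do not state, and are printed counted from 1.

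Distinct peaks were compared in Python 3.11.15 (pandas 2.3.3, numpy 2.4.6, scipy 1.17.1), with shared meaning at least 1 bp. Class III starts at 31.5 Mb and class II at 32.4 Mb. Genes named were every gene of the fixed lists, the 4 widest, 4 lowest and 4 highest ratios per part, every promoter H3K27me3 gene and the 3 widest peaks per list. Members and lists were chosen with earlier results of these data known. Some items of the lists are not reported here. Code was tested on simulated peak lists. Where a list of another length, width or window was tried, its effect is in the closing section. With no counts in the lists, the depth is unknown and could move number and width alike.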

Additional observations from a re-analysis of the deposited data

How the results depend on the processing

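Of 111 recomputed values of the main comparisons 73 stayed within counting error or within 1.5 times, and 38 moved; the cause was not tested. With at least 50% of a peak covered, the overlapping shares were 23.6% of parental and 87.2% of knockout H3K4me3 peaks and 10.3% of knockout H3K27me3 peaks. With 50% covered in both peaks they were 22.4% and 27.1% for H3K4me3 and 15.8% and 10.3% for H3K27me3. With peaks of at least 300 bp the H3K4me3 ratios were 0.612 in number and 0.361 in covered length, 31 genes were marked in the parental library only and 2 in the knockout library only, and the median log2 ratio was -1.25. With lists cut to equal length by width, the number ratio was 1.06. The overlapping shares were then 63.4% and 88.7%, and 1 gene each was marked by knockout H3K4me3 only and by parental H3K27me3 only.

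With a promoter window of 1 kb, 4 genes had H3K4me3 in the knockout only, the median was -1.10, and H3K27me3 genes numbered 0 in both libraries, 0 in the parental only and 2 in the knockout only. A 10 kb window gave 7 H3K27me3 genes in both and 5 in the parental only. Peaks spanning the start site left 11 H3K4me3 genes in both, 28 and 3 in 1 library only, a median of -1.90, and 0, 0 and 1 genes for H3K27me3. Peaks given to the nearest gene left 21 parental-only and 4 knockout-only genes. DDAH2 reversed to -0.80 with 10 kb and to -0.55 with bases counted, an alternative chosen after seeing the data, as were 2 other joining distances. Limits moved 0.1 Mb earlier left 0 and 0 H3K27me3 peaks in class III and 10 and 16 in class II; moved later they left 3 parental peaks in class II. No paired analysis was possible because each group has 1 library. Unknown depth limits every number and width.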
